A study of Danio rerio with 16 samples.

Results

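The genes described here encode splicing factors and other RNA-binding proteins of zebrafish fast muscle. Their probes were chosen by name: every non-control probe whose RefSeq accession led to a zebrafish symbol beginning with srsf, sf3, snrp, hnrn, prpf, u2af, lsm, rbm, ddx, dhx, khdrbs, elavl, cirbp, mbnl, celf or ptbp, with a number required after lsm, ddx and dhx. This gave 156 probes of 107 genes, out of 43803 non-control probes on the array and 5952 genes that could be named this way, and no probe of an mbnl, ptbp or cirbp gene. A further 2 probes of cirbpa, named through the descriptions in the deposited table, bring the total to 158 probes and are described apart from the 156. Of the 107 genes, 73 had a single probe, and no gene had more than 6.

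Splicing removes introns from nuclear transcripts and is carried out by the spliceosome, a machine assembled from small nuclear ribonucleoproteins. Each of these holds a small RNA held in a ring of Sm proteins (or, for U6, LSm proteins). SR proteins bind exons and usually promote their inclusion, hnRNP proteins coat the transcript and often oppose it, and RNA helicases drive the rearrangements. In striated muscle, factors of the CELF, muscleblind and RBM24 kind are known for setting which isoforms of the contractile proteins are made.

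Both groups were wild-type adult zebrafish from a pet shop, kept in swim tunnels, with 1 tunnel for each group. Exercised fish (n = 8) swam at 0.4 m/s for 6 h a day over 20 experimental days, and non-exercised fish (n = 8) stayed at 0.1 m/s. RNA of dorsal fast muscle from each fish was hybridised to 1 array. Sex was not used as a factor here. The question was which transcripts differ after training. Values are the log2 of the processed signal relative to the 75th percentile of the array, and a difference is exercised minus non-exercised on that log2 scale, with its standard error. A probe was called at an adjusted p under 0.05 in a limma fit over all 43803 probes.

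The arrays sat on 4 slides of 4. Non-exercised fish 1 to 4 and 5 to 8 filled slides 1 and 2, and exercised fish 1 to 4 and 5 to 8 filled slides 3 and 4. Each group had its own slides, scan day and tunnel, and these cannot be told apart from training. Slide 4 had the fewest probes well above background, a mean of 30.1% against 41.2% to 48.3% on the other slides. Fast muscle markers were well above background on all 16 arrays for 8 of the 9 genes with a probe. So were 3 of 3 slow muscle, 5 of 6 red cell and 4 of 5 skin and epithelium genes. The counts were 3 of 5 for leucocyte, 1 of 5 for nerve and 0 of 2 for liver genes. Of 2 endothelial genes, 1 was well above background on all 16 arrays and the other, cdh5, on none. The summed red cell signal, relative to the 75th percentile, ran from 71.8 to 359 in non-exercised and from 223 to 756 in exercised fish. The summed leucocyte signal ran from 12.6 to 125 and from 9.15 to 313. These ranges overlapped between the groups for all 8 marker lists. Some marker probes nevertheless differed between the groups. Of 6 red cell probes 5 were higher, 4 at an unadjusted p under 0.05 in the limma fit, with a median of 1.15. All 10 nerve probes, which include members elavl3 and elavl4, were higher, 3 at that p. Of 15 leucocyte probes 12 were lower, 1 at that p, with a median of -0.32. Of all probes on the array 64.9% were higher, 12.2% at that p, and 35.1% lower, 7.41% at that p. None of these red cell, nerve or leucocyte probes was called. Of 15 fast muscle probes 13 were higher, 3 at that p, with a median of 0.55, and 1 probe, of tnnt3a, was called lower. The part of these markers in the results below was not tested.

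Some fish stood apart from the rest. Non-exercised fish 8 and exercised fish 8 had the lowest values of many members within their groups, as described below. Of the 16 arrays, that of exercised fish 8 had the fewest probes well above background, 21.1%, and the most spots with an outlier flag, 892. For non-exercised fish 8 these were 41.9% and 189. The part of array quality in the values of these fish was not tested. Non-exercised fish 1 and 6 and exercised fish 1 carried high signal of egg and germ-line genes, a list of 16 genes written after the values of some members were seen. The summed signal of this list was 127, 599 and 777 in those fish, and from 2.24 to 19.7 in every other fish. Their arrays were kept, and the counts are also given without them.

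Most members were lower in exercised fish. Of the 156 probes, 125 were lower, or 80.1%, against 35.1% of all probes. The median difference of the members was -0.54, against 0.26 for all probes, a gap of -0.79. The position of all probes moved with the background correction and with the slide of the exercised fish. With normexp correction 52.5% of them were lower, with no correction 58.7% and with the exercised fish of slide 3 alone 63.6%. The shares of the members were 79.5%, 82.7% and 82.7%. The gap was then -0.38, -0.35 and -0.28, and it was -0.55 with quantile normalization, -0.50 with cyclic loess and -1.14 with slide 4 alone. Called lower were 22 probes of 15 genes, 14.1% of the members against 1.79% of all probes. Called higher were 0 of the 156, against 4.58% of all probes. At an unadjusted p under 0.05, 67 members were lower and 5 higher, against 7.41% and 12.2% of all probes, and the methods' t-test after adjustment called 28 lower and 0 higher, against 2.45% and 4.51%. In whole muscle, fewer cells of a type and less RNA per cell cannot be told apart.

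The 15 genes were spread over 6 of the 12 role groups. They comprised 5 Sm protein genes (snrpb, snrpd1, snrpe, snrpf and snrpg), the SR protein genes srsf1a and srsf3b, and the hnRNP genes hnrnpa0b, hnrnpaba and hnrnpl. The others were the Hu protein gene elavl1a, rbm4.2, and the helicase genes ddx5, ddx39b and ddx56. For 11 of the 15 genes every probe on the array was called, but this count includes genes with a single probe. Of the 8 called genes with 2 or more probes, 4 had every probe called. All 22 probes were lower on slide 3 and on slide 4 taken apart. In 21 of the 22 all 8 exercised fish lay below the non-exercised mean. The 22 were selected for their difference in these same fish, so both counts are descriptions and give no support.

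**Figure D1:**
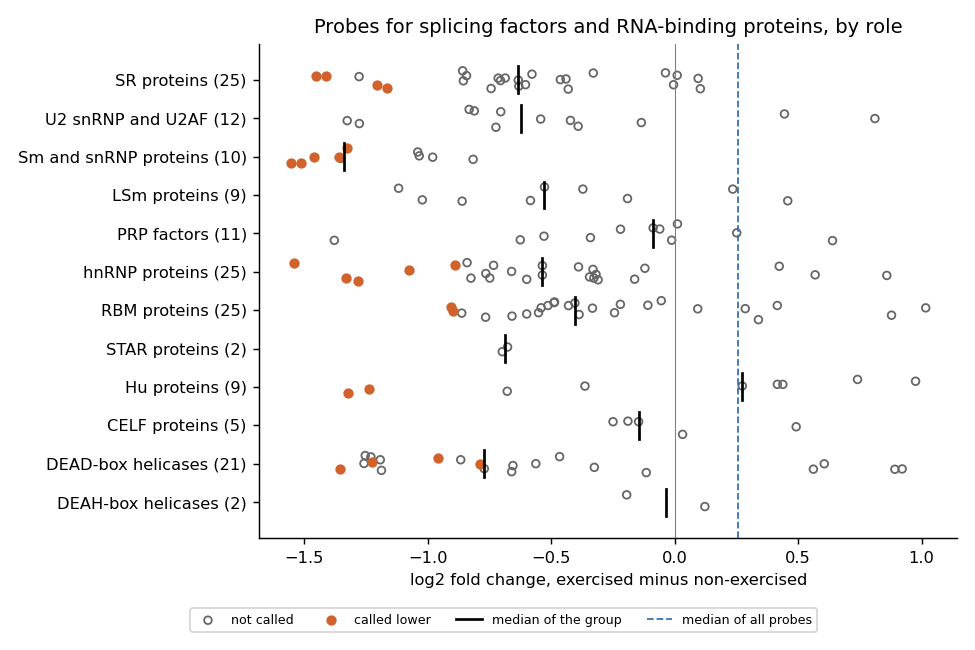
Log2 fold change (exercised minus non-exercised, n = 8 and 8) of each of the 156 probes, by role group with the number of probes in parentheses. Filled points were called lower, black bars mark group medians and the dashed line the median of all probes, 0.26; the Sm and snRNP group lies farthest to the left, with a median of -1.34.

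The call depended on how slides were treated. Within the exercised group, slide 4 against slide 3 called 32.7% of all probes and 8 members, with 0 of the 22 among them. The 22 were called against their spread within groups, which includes differences between slides, so that 0 was partly fixed by their selection. Within the non-exercised group, slide 2 against slide 1 called 1.75% of all probes and 0 members. With the slide as a random block (within-slide correlation 0.3003), 0 members and 0.0% of all probes were called lower, with unadjusted p from 0.00347 to 0.0428 for the 22 probes. Without non-exercised fish 1 and 6 and exercised fish 1, 13 members were called lower, against 1.12% of all probes, 10 of them among the 22, and the median was -0.56.

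Brightness was taken into account by splitting all probes into 4 equal bins by their mean signal over the 16 fish. Of the 99 members in the brightest bin, 91.9% were lower and 18.2% were called lower, with a median of -0.66, against 55.3%, 4.15% and -0.079 of all probes of that bin. Of the 36 members in the next bin, 77.8% were lower and 11.1% called, with a median of -0.57, against 51.5%, 2.94% and -0.025. The dimmer bins held 17 and 4 members, of which 6 and 0 were lower and 0 were called. Their medians were 0.42 and 0.44, against 0.39 and 0.37 of all probes there.

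Sm proteins form the ring that holds the spliceosomal RNAs. Among the members 7 genes were of this ring, with snrpd3 and snrpd3l counted apart, while the ring gene snrpd2 had no probe. Together with 3 genes of other proteins of the same particles, they made up the group with the lowest median. It was -1.34 over 10 probes, and the 7 ring genes alone had -1.36. All 10 were lower, each at an unadjusted p under 0.05, against 35.1% and 7.41% of all probes. Called lower were 5, all of them ring genes, against 1.79% of all probes. With 1 fish left out the count was 10 without exercised fish 1, 8 without non-exercised fish 8, 2 without non-exercised fish 3, and 3 when the fish left out was number 1, 5 or 7 of the non-exercised or 2, 3, 4 or 8 of the exercised group. The share of all probes called lower moved the same way. It was 2.73% without exercised fish 1, 2.58% without non-exercised fish 8, and from 0.655% to 1.25% in the settings with a count of 2 or 3. The signal of snrpd1 was lowest at 1.90, had a median of 2.94 and was highest at 4.06 in non-exercised fish. In exercised fish it was 0.85, 1.39 and 2.81. Of the 8 exercised fish, 6 lay below every non-exercised fish. The difference was -1.55 ± 0.36 (adjusted p = 0.0137), or 2.93-fold lower.

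The other ring genes followed the same order of groups. For snrpe the non-exercised values were 2.92, 3.73 and 4.52 (lowest, median, highest) and the exercised values 0.79, 2.17 and 3.62, a difference of -1.51 ± 0.37 (adjusted p = 0.0201). For snrpf they were 1.77, 2.86 and 3.58 against 0.14, 1.37 and 2.53, a difference of -1.46 ± 0.38 (adjusted p = 0.0286). For snrpg they were 2.22, 3.14 and 3.87 against 0.76, 1.49 and 2.34, a difference of -1.36 ± 0.31 (adjusted p = 0.0125). In each of these genes the groups overlapped, with 5 or 6 exercised fish below the whole non-exercised range. The signal of snrpb, which encodes SmB, was 4.07, 5.56 and 6.69 against 3.16, 4.40 and 5.42, a difference of -1.32 ± 0.37 (adjusted p = 0.0393). Here only 2 exercised fish lay below all non-exercised fish, since non-exercised fish 8, at 4.07, was well under the rest of its group.

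Among the ring genes that were not called, snrpd3 differed by -1.35 ± 0.52 (adjusted p = 0.141) and snrpd3l by -1.04 ± 0.35 (adjusted p = 0.0811). The exercised values of snrpd3 were spread from -2.02 to 2.65, and the highest was fish 1, above every non-exercised fish. The genes of proteins particular to U1 and U2 particles were also lower without a call. These were snrpa (-0.98 ± 0.32, adjusted p = 0.0747), snrpc (-0.82 ± 0.37, adjusted p = 0.227) and snrpa1 (-1.03 ± 0.33, adjusted p = 0.0655). Without the 3 fish rich in egg transcripts the median of the group was -1.45 and 2 genes were called, snrpd1 (adjusted p = 0.0351) and snrpg (adjusted p = 0.03), while snrpb, snrpe and snrpf had adjusted p of 0.0501, 0.0502 and 0.0569.

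**Figure D2:**
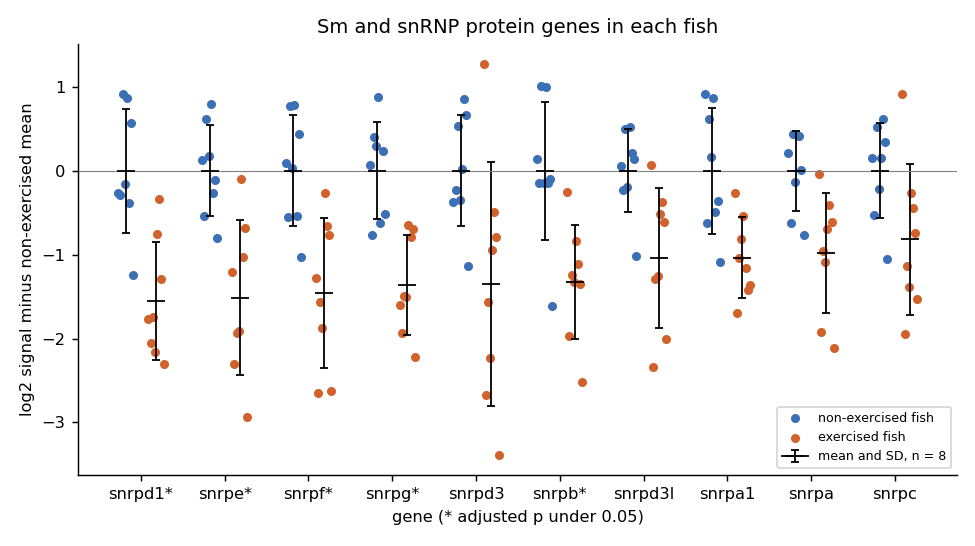
Signal of the 10 Sm and snRNP protein genes in each fish, on the log2 scale after subtraction of the gene's non-exercised mean (bars, mean and SD, n = 8 in each group; asterisks, adjusted p under 0.05). In snrpd1, snrpe and snrpg 6 of the 8 exercised fish lie below all non-exercised fish, and in snrpd3 exercised fish 1 lies above them all.

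The SR proteins had 25 probes of 14 genes, with a median of -0.63. Of the 25 probes, 22 were lower and 4 called lower, against 35.1% and 1.79% of all probes. The strongest call among all members was srsf3b, whose protein is a small SR factor that also acts in mRNA export. On its probe A_15_P113040 the non-exercised values were 1.81, 2.64 and 3.24 and the exercised values 0.38, 1.09 and 1.75. This was the one member in which all 8 exercised fish lay below all 8 non-exercised fish, a pattern seen in 0.224% of all probes. The difference was -1.41 ± 0.27 (adjusted p = 0.00412), or 2.66-fold, and on its other probe -1.20 ± 0.28 (adjusted p = 0.0132), with 7 exercised fish below the non-exercised range. Both probes were called with any single fish left out and without the 3 fish rich in egg transcripts.

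The gene srsf1a encodes the classical exon-enhancer factor of the family. On probe A_15_P112966 its non-exercised values were 1.09, 2.08 and 3.03 and its exercised values -0.09, 0.68 and 1.49. The difference was -1.45 ± 0.29 (adjusted p = 0.00603), and on a second probe -1.16 ± 0.29 (adjusted p = 0.0199). Another probe was well above background on 1 array of each group and differed by 0.10 ± 0.33. The remaining SR genes were not called: 3 probes of srsf2a differed by -0.86 to -0.71 with adjusted p from 0.0555 to 0.145, and srsf3a by -1.28 ± 0.41 (adjusted p = 0.0742) on its more strongly changed probe. The brightest SR probe, that of srsf11, differed by -0.33 ± 0.22 (adjusted p = 0.481), with non-exercised values from 3.09 to 4.23 and exercised values from 3.04 to 3.53.

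Zebrafish keep 2 copies of many of these genes, and 8 such pairs had bright probes for both copies. This comparison was chosen after the values were seen and is given without a test. In srsf2 the a copy differed by -0.85 and the b copy by 0.00, a difference between them of -0.85 ± 0.26, and in 7 of the 8 exercised fish the a copy stood lower against the b copy than in any non-exercised fish. In hnrnpa0 the order was turned, with -0.32 for a and -1.33 for b, a difference of 1.01 ± 0.50. In srsf6 the copies differed by -0.59 ± 0.31, in srsf1 by -0.53 ± 0.33 and in lsm12 by -0.67 ± 0.47. In srsf3 (-0.07 ± 0.41), srsf5 (0.25 ± 0.26) and hnrnpab (-0.12 ± 0.14) the copies differed by no more than their standard error. Probes of near-identical copies may share signal, so these contrasts can be understated.

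**Figure D3:**
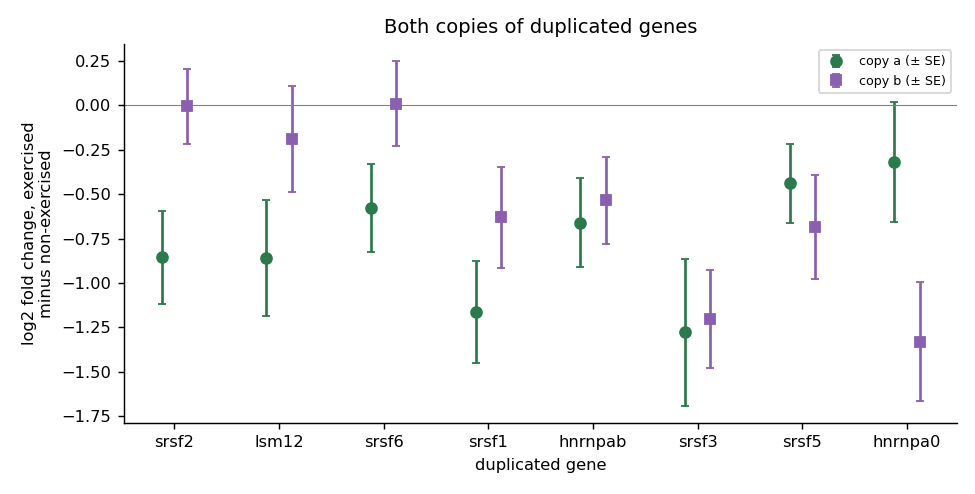
Log2 fold change of the a and b copies of 8 duplicated genes, each on its brightest probe with standard error (n = 8 fish in each group). The copies of srsf2 lie 0.85 apart and those of hnrnpa0 1.01 apart in the opposite order, while those of srsf3 and hnrnpab lie within their errors.

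Factors that recognise the branch point and the end of the intron (the sf3 genes of the U2 particle and u2af1) had 12 probes of 9 genes. Of these, 10 were lower, with a median of -0.62, and 0 were called, while 35.1% of all probes were lower and 1.79% called lower. At an unadjusted p under 0.05, 5 were lower and 0 higher, against 7.41% and 12.2% of all probes. Without exercised fish 1, 4 were called lower, when 2.73% of all probes were. The nearest to a call were sf3a3 (-0.72 ± 0.22, adjusted p = 0.0565), sf3b5 (-1.28 ± 0.40, adjusted p = 0.063) and u2af1 (-0.83 ± 0.27, adjusted p = 0.0736). The brightest, sf3a2, spanned 2.20 to 3.87 in non-exercised and 1.31 to 3.44 in exercised fish, a difference of -0.70 ± 0.37 (adjusted p = 0.323). The probe of sf3b1, whose protein forms the core of the branch-point complex, was above background on no array.

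Some LSm proteins are part of the ring on the U6 RNA (lsm4, lsm6) or act in mRNA decay in the cytoplasm (lsm1). The 9 probes of the group, which also held lsm12a, lsm12b, lsm14aa and lsm14b, had a median of -0.53, with 7 lower and 0 called. Those of lsm1 differed by -1.12 ± 0.39 (adjusted p = 0.101) and -1.02 ± 0.36 (adjusted p = 0.107). The brightest, lsm12b, ran from 2.75 to 4.79 in non-exercised and from 3.07 to 4.19 in exercised fish and differed by -0.19 ± 0.30 (adjusted p = 0.722). PRP factors, which act in the later complexes of the spliceosome, had a median nearer 0, at -0.09 over 11 probes of 10 genes, with 8 lower and 0 called. The ubiquitin ligase gene prpf19 differed most, by -1.38 ± 0.45 (adjusted p = 0.076), and the brightest probe, prpf6, by -0.09 ± 0.29. At an unadjusted p under 0.05, 3 probes of each group were lower and 0 higher, against 7.41% and 12.2% of all probes. Without regard to p, 35.1% of all probes were lower, and 1.79% were called lower.

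The hnRNP proteins had 25 probes of 12 genes, with a median of -0.54. Of the 25 probes, 22 were lower and 5 called lower, against 35.1% and 1.79% of all probes. The count was 9 without non-exercised fish 8, 3 when number 1 or 5 of that group or exercised fish 4 was left out, and 2 without non-exercised fish 3 or 7. The share of all probes called lower was 2.58% in the first of these settings and from 0.655% to 1.03% in the others. For hnrnpl, whose protein binds CA-rich RNA, the non-exercised values were -2.52, -0.96 and -0.27 and the exercised values -3.46, -2.79 and -1.50. The difference was -1.54 ± 0.37 (adjusted p = 0.0162). The probe was well above background on 7 non-exercised arrays and on 1 exercised array, so the low values sit close to background. For hnrnpa0b, which encodes a binder of AU-rich elements, the brighter probe gave 0.87, 2.00 and 2.49 against -1.17, 0.60 and 1.36. Its difference was -1.33 ± 0.34 (adjusted p = 0.0232), and that of the other probe -1.28 ± 0.30 (adjusted p = 0.0148).

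All 6 probes of hnrnpaba were lower. Called were A_15_P110936, by -1.07 ± 0.28 (adjusted p = 0.0291), and A_15_P102971, by -0.89 ± 0.26 (adjusted p = 0.0463). The brightest of the 6 differed by -0.66 ± 0.25 (adjusted p = 0.13), with 3.18, 3.97 and 4.60 in non-exercised and 2.90, 3.30 and 3.77 in exercised fish. The bright probe of hnrnph1 was among the 3 higher ones, at 0.57 ± 0.33 (adjusted p = 0.372). Without the 3 fish rich in egg transcripts only A_15_P110936 was called in this group (adjusted p = 0.0499), and hnrnpl had an adjusted p of 0.0516.

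Proteins of the RBM name share an RNA-recognition motif and little else. Their 25 probes of 19 genes had a median of -0.40, with 19 lower, against 35.1% of all probes, and 2 called. None was called when number 3, 5 or 7 of the non-exercised or 2, 3 or 8 of the exercised group was left out, and 1 when number 1, 2 or 4 of the former or 4 or 7 of the latter was. In these settings the share of all probes called lower was from 0.655% to 1.5%, against 1.79% with all fish. Both called probes were of rbm4.2, whose mammalian counterpart regulates splicing in developing muscle cells. On A_15_P106315 the non-exercised values were 0.77, 1.19 and 1.82 and the exercised values -0.27, 0.44 and 0.78, so that 7 exercised fish lay below every non-exercised fish. The differences were -0.90 ± 0.24 (adjusted p = 0.0289) and -0.91 ± 0.25 (adjusted p = 0.0395). The 3 probes of its neighbour in name rbm4.1 differed by -0.76 to -0.55 and were not called. The brightest probe, rbm39a, differed by 0.09 ± 0.23 (adjusted p = 0.821).

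The highest value among all 156 probes was that of rbm24a, the muscle splicing regulator named above, and it is named here, with rbms2b, after its values were seen. In non-exercised fish rbm24a gave -0.66, 0.25 and 1.17 and in exercised fish -0.04, 1.26 and 2.19. The difference was 1.02 ± 0.37 (adjusted p = 0.116), with 5 exercised fish above every non-exercised fish. The size differed between slides, at 1.51 for the fish of slide 3 and 0.52 for those of slide 4, each against all non-exercised fish. For rbms2b, of a family named for binding the MYC promoter, the difference was 0.88 ± 0.30 (adjusted p = 0.0964), and all 8 exercised fish lay above the non-exercised mean. Over the alternative settings the adjusted p ran from 0.046 (cyclic loess) to 0.746 (slide as a random block) for rbm24a, and from 0.02 (cyclic loess) to 0.71 (non-exercised fish of slide 1 alone) for rbms2b.

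CELF proteins, repressors and activators of muscle exons, showed no called probe among 5. The brightest, celf2, gave 1.40, 1.60 and 2.13 in non-exercised and 0.79, 1.53 and 2.18 in exercised fish, a difference of -0.15 ± 0.23 (adjusted p = 0.728). For celf1 the difference was -0.25 ± 0.22 (adjusted p = 0.608), with 0.06 to 1.02 against -0.08 to 0.81. The probes of celf3a and celf4 were above background on 1 array each, in 1 group only, and are given no difference. The STAR protein gene khdrbs1b, which encodes a Sam68-type adaptor, differed by -0.70 ± 0.29 and -0.68 ± 0.26 on its 2 probes (adjusted p = 0.178 and 0.144).

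Hu proteins bind AU-rich elements and lengthen the life of mRNAs. Their 9 probes of 5 genes had a median of 0.27, near the 0.26 of all probes. Of the 9, 4 were lower, 2 of them called, and 5 were higher, while 35.1% of all probes were lower and 1.79% called lower. At an unadjusted p under 0.05 in the limma fit, 3 were lower and 1 higher, against 7.41% and 12.2% of all probes. The genes elavl1a and elavl1b are copies of that of the ubiquitous member, and elavl2, elavl3 and elavl4 are best known from neurons. On A_15_P112129 the non-exercised values of elavl1a were -0.57, 0.38 and 1.20 and the exercised values -1.80, -1.0 and -0.20. The difference was -1.32 ± 0.30 (adjusted p = 0.0114). The second called probe gave -1.24 ± 0.32 (adjusted p = 0.0248), and the other probe, with a wide spread between fish, -0.36 ± 0.61. For elavl1b the difference was -0.68 ± 0.29 (adjusted p = 0.201). Of the neuronal genes, elavl4 differed by 0.74 ± 0.51 on a probe well above background on 4 arrays, and elavl3, seen on 1 exercised array, is given no difference. The other elavl4 probe, also higher, was well above background on 0 arrays and is given none either.

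DEAD-box helicases had the lowest median after the Sm group, -0.77 over 21 probes of 14 genes. Of the 21 probes, 17 were lower and 4 called lower, against 35.1% and 1.79% of all probes. With 1 fish left out the count was 11 without exercised fish 1 and 8 without non-exercised fish 8, when 2.73% and 2.58% of all probes were called lower. The count was 2 when the fish left out was number 4 or 5 of the non-exercised or 2 or 8 of the exercised group, and 1 for numbers 1, 3 and 7 of the former and 3, 4 and 6 of the latter. In these settings the share of all probes called lower was from 0.655% to 1.67%. For ddx5, a helicase that works with splicing and transcription factors, A_15_P107634 gave 0.39, 1.07 and 1.53 in non-exercised and -1.26, -0.41 and 1.05 in exercised fish. The difference was -1.36 ± 0.34 (adjusted p = 0.0211). The other probe gave -0.79 ± 0.22 (adjusted p = 0.0421), and 7 of the 8 exercised fish lay below the non-exercised range. For ddx39b, which loads mRNA for export, the values were 1.05, 1.93 and 2.74 against 0.28, 1.03 and 1.44, a difference of -0.96 ± 0.27 (adjusted p = 0.0382).

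Its relative ddx39ab, the brightest helicase probe, differed by more but with a wider spread, -1.26 ± 0.45 (adjusted p = 0.108), with 2.26, 4.07 and 4.47 against 0.72, 2.59 and 4.70. The highest of those exercised values lay above all non-exercised fish. The gene ddx56, of ribosome assembly in the nucleolus, was called on 1 of 3 probes, -1.22 ± 0.33 (adjusted p = 0.032), and the others gave -1.19 ± 0.36 each (adjusted p = 0.0539 and 0.0555). The called probe stood well above background in 1 exercised fish and 4 non-exercised fish, and the other 2 in 15 fish each. The DEAH-box genes dhx16 (-0.19 ± 0.26) and dhx38 (0.12 ± 0.31) were not called.

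The gene cirbpa encodes a glycine-rich protein that is induced by cold in mammals and binds mRNA. It was named from a table of probes that the authors had selected on these same arrays, so its difference is a description. One probe gave 3.78, 4.67 and 5.01 in non-exercised and 1.56, 3.01 and 3.83 in exercised fish, and the other 4.57, 5.45 and 5.81 against 2.61, 3.98 and 4.79. On each, 7 exercised fish lay below every non-exercised fish, and fish 8 was the lowest. The differences were -1.57 ± 0.30 and -1.33 ± 0.29. A separate probe with a cold-inducible description, not resolved to a gene copy, stood well above background in 2 exercised fish and 0 of the others, and is given no difference.

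The 22 called probes were compared fish by fish, as a mean deviation from the non-exercised mean of each probe. Exercised fish ranged from -0.77 (fish 5) to -1.86 (fish 8), and non-exercised fish from -0.86 (fish 8) to 0.47 (fish 5). Non-exercised fish 8 was below every other non-exercised fish in 18 of the 22 probes and lay lower than exercised fish 5 and 6. With both fish numbered 8 left out, an alternative chosen after seeing the data, 26 members were called lower, against 2.09% of all probes. Over the 7 ring genes the deviations of the exercised fish ran from -0.58 (fish 5) to -2.57 (fish 8), so the same genes differed by about 2 log2 units among fish of 1 group.

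**Figure D4:**
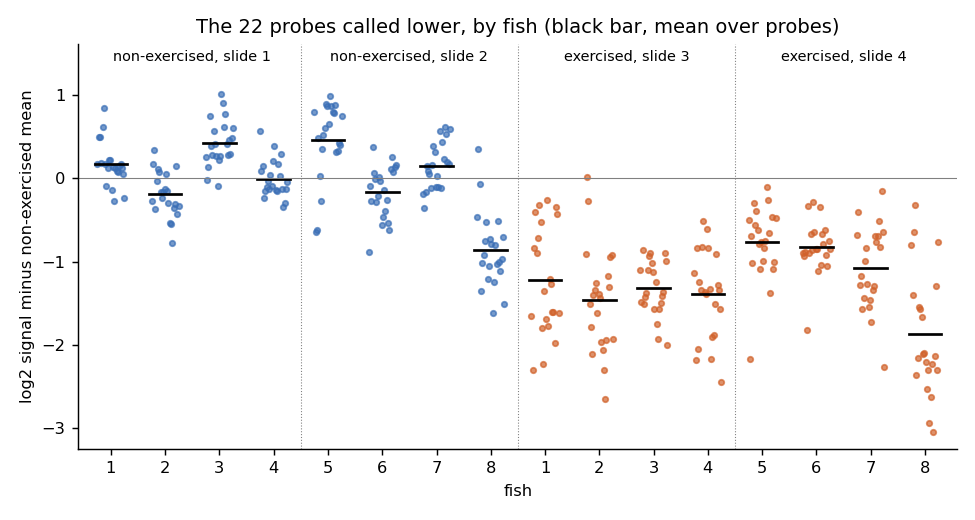
Log2 signal of the 22 probes called lower, after subtraction of each probe's non-exercised mean, for each of the 16 fish by slide (points, probes; black bars, mean over the 22 probes). Exercised means lie between -1.86 and -0.77; non-exercised fish 8, at -0.86, lies inside that range.

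Leaving out single fish moved the count between 10 and 44. It was 10 without non-exercised fish 3, against 0.655% of all probes, 12 without fish 7 (0.975%), 13 without fish 1 (1.03%) and 14 without fish 5 of that group (0.961%). It was also 14 without exercised fish 2, 3 or 4, in each case, against 0.772%, 0.936% and 0.989%. It was 38 without non-exercised fish 8 (2.58%) and 44 without exercised fish 1 (2.73%). In 8 genes at least 1 probe, 10 probes in all, was called with any single fish left out: srsf1a, srsf3b, snrpd1, snrpg, hnrnpa0b, hnrnpl, elavl1a and ddx5. These probes were taken from the 22 already called in the same fish. The share of all probes that were called in every such setting was not counted, so the list is a description. Without the 3 fish rich in egg transcripts, ddx5 was not called (adjusted p = 0.0822 and 0.0912), nor were hnrnpa0b and hnrnpl. The 2 called probes of elavl1a then had adjusted p of 0.0282 and 0.0707.

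A small set of members varied between fish far more than between groups. The median standard deviation within groups was 0.568 for the members, and 5 probes, of hnrnpk, lsm14b and elavl2, were over 1.5. They are named after their values were seen. The protein of hnrnpk binds C-rich RNA, that of lsm14b represses mRNAs in granules and is known from oocytes, and elavl2 acts in neurons and germ cells. On probe A_15_P102730 hnrnpk reached 1.47 in non-exercised fish 1, 4.70 in non-exercised fish 6 and 5.19 in exercised fish 1, and in every other fish it was -1.30 or less. For lsm14b the same 3 fish had 0.40, 3.11 and 3.84, and the highest of the others was -1.61. For elavl2 they had -2.25, 1.33 and 1.61, with the others between -4.78 and -1.03.

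These are the 3 fish in which egg and germ-line genes were high. The egg coat gene zp2.3 was at 5.02, 7.63 and 7.76 in them and at 1.92 or less in every other fish. The germ-line helicase gene ddx4, itself a member, was at -1.23 in non-exercised fish 6 and -0.18 in exercised fish 1 on A_15_P117971, but at -4.36 in non-exercised fish 1. Non-exercised fish 6 and exercised fish 1 were above the 13 fish outside these 3 for all 16 genes of the list, and non-exercised fish 1 for 12 of them. With 2 such fish in one group and 1 in the other, hnrnpk differed by 0.42 ± 1.44 and -0.82 ± 1.37 on its 2 probes, and by 1.22 and 1.04 without the 3 fish (adjusted p = 0.168 and 0.526). A spot of the second probe on the array of exercised fish 1 carried an outlier flag and was left out.

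**Figure D5:**
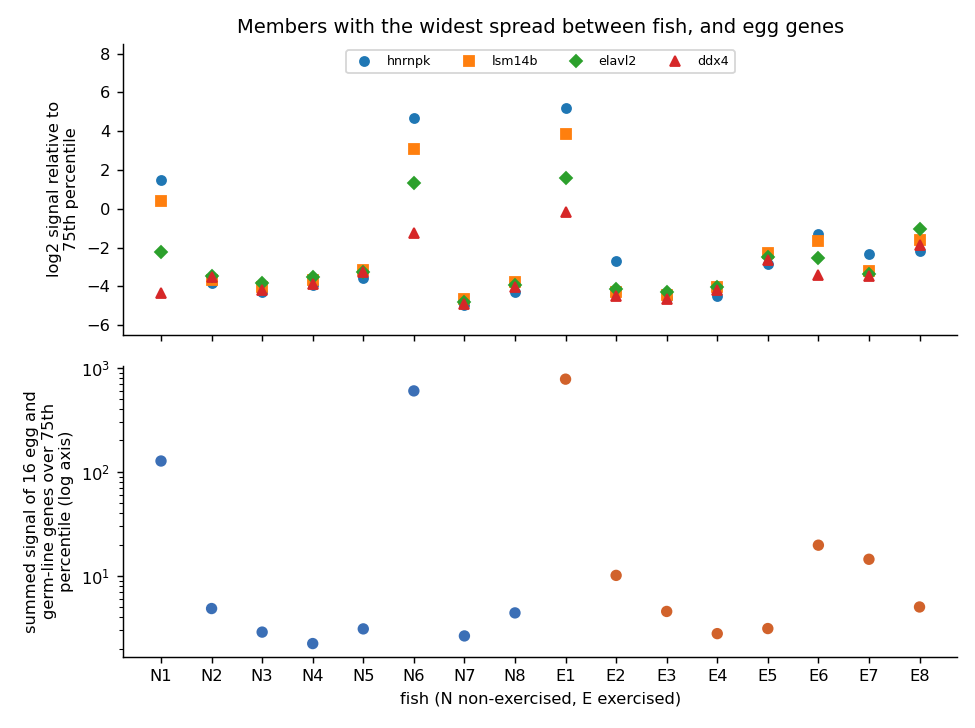
Upper panel, log2 signal relative to the 75th percentile of 1 probe each of hnrnpk, lsm14b, elavl2 and ddx4 in each fish; lower panel, summed signal of 16 egg and germ-line genes in the same fish on a log axis. Non-exercised fish 6 and exercised fish 1 are high in all 4 genes and in the sum (599 and 777), and non-exercised fish 1 (127) in hnrnpk and lsm14b.

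Other genes of splicing and mRNA processing, outside the naming rule, were given by a list of their own with 95 probes of 63 genes on the array. Of these, 60 were lower, against 35.1% of all probes, with a median of -0.20. At an unadjusted p under 0.05, 24 were lower and 1 higher, against 7.41% and 12.2% of all probes. Called lower were 3, or 3.16%, against 1.79% of all probes, and called higher 0. Of all probes in the 2 brighter bins 4.15% and 2.94% were called lower. This list was not split by brightness, and its called share is near those of the bins. The called genes were rnps1 of the exon junction complex (-1.21 ± 0.32, adjusted p = 0.0283), the cleavage factor gene cpsf3 (-0.94 ± 0.26, adjusted p = 0.0377) and the export gene thoc6 (-1.32 ± 0.38, adjusted p = 0.0456). Other probes of thoc6 gave -1.17 ± 0.45 and -0.71 ± 0.36 and were not called (adjusted p = 0.139 and 0.286). The U1 protein gene snrnp70 differed by -0.78 ± 0.26 (adjusted p = 0.0776).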

How the data were processed

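RNA from the fast muscle of 16 zebrafish, 8 of each group, was measured on 16 one-colour arrays. The deposited scanner files give spot intensities that the authors obtained with Agilent Feature Extraction 10.7.3.1. The deposited table gives the authors' log2 values for each array, which differed from the values used here by a median of 0.00109 over 2985 probes once both were centred on the probe. Its fold changes and p-values are the authors' comparisons and were not used. Here log2 of the processed signal was taken, less the array's 75th percentile. Spots with an outlier flag (49 to 892 per array) were left out; none was saturated. The share of probes well above background, from 21.1% to 54.0% per array, and the number of arrays limit the precision. Groups were compared with limma 3.58.1 in R 4.3.3 (lmFit, eBayes, Benjamini-Hochberg over 43803 probes), run also on simulated data with known changes. RefSeq accessions named 9104 probes with 5952 symbols. The tables used were built in Python 3.11.15 with numpy 2.4.6 and pandas 2.3.3.

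Genes given individually were all called members, cirbpa, the brightest probe of each role group among those well above background on all 16 arrays, and every celf and elavl gene. Others are said to be named after their values were seen or are given as the nearest values of their group. The members and lists were chosen with earlier results of these data known. Alternatives were normexp (offset 50) or no background correction, quantile, median and cyclic loess normalization, filters on dim probes, the slide as a random block or 1 slide alone, the replicate number as a block, averaging the probes of each gene, the methods' t-test, and each fish left out.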

Additional observations from a re-analysis of the deposited data

Results flagged for a closer look

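Among the members given with values, 168 groups of 8 fish were checked for a fish whose gap to the nearest other fish was large against the range of its group, and 19 showed one. Chance gives about 1 in 20 such groups where probes are taken without regard to their values. Of the 84 probes behind these groups only 39 were named by rule and the others after values were seen. The count of 19 can therefore not be set against that rate. Exercised fish 8 was far below its group in 3 of them: 1.56 and 2.61 on the probes of cirbpa, where the nearest fish had 2.88 and 3.89, and -1.17 on a probe of hnrnpa0b, where the nearest had 0.27. Non-exercised fish 8 was far below its group in 6: 4.07 for snrpb, against 5.53 in the nearest fish, 1.02 for srsf1a, against 1.99, 1.94 for ddx39ab, against 3.21, -1.10 for lsm1, against 0.12, and -0.47 and -2.14 on probes of elavl1a, against 0.40 and -1.31. Non-exercised fish 6 was far above its group for elavl2, at 1.33 against -2.25, for rbm4.1, at 0.52 against -0.78, and on the 2 probes of ddx4, at -1.17 against -3.28 and at -1.23 against -3.27. Exercised fish 1 was far above its group on probe A_15_P102730 of hnrnpk, at 5.19 against -1.30, and on 2 probes of lsm14b, at 3.84 against -1.61 and at 3.74 against -1.59. The others were exercised fish 7 for elavl1a, at 2.73 against -1.21, and non-exercised fish 1 and 5 on the dim probes of ddx11, at -1.12 against -3.17 and at -1.84 against -3.29. The genes hnrnpk, lsm14b, ddx4, ddx11, lsm1 and rbm4.1 were named after their values were seen. So were the flagged probe of ddx39ab and, for elavl1a, the probe with the values -2.14 and 2.73.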

How the results depend on the processing

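The median difference of the members stayed between -0.79 and -0.40 under every alternative run, and the 22 probes called lower stayed lower in all of them. Each count below is followed by the share of all features tested that was called in that setting. The number called lower was 12 with normexp correction (0.642%), 12 of 107 genes with the probes of each gene averaged (1.86%), 40 of 123 with the filter at 8 arrays (8.85%), 0 with the slide as a random block (0.0%) and 42 at an unadjusted p under 0.01 in the methods' t-test (4.15%). With the non-exercised fish of slide 1 or slide 2 alone it was 6 (1.22%) and 0 (0.194%), and with the exercised fish of slide 3 or slide 4 alone 14 (1.41%) and 34 (2.5%). It was 13 without non-exercised fish 1 and 6 and exercised fish 1 (1.12%), an alternative chosen after seeing the data, and from 10 to 44 with 1 fish left out. The number called higher was 2 with cyclic loess (rbm24a and rbms2b, 6.09%), 1 with the filter at 8 arrays (6.23%), 1 with the filter at 16 arrays (8.49%), 1 with slide 3 alone (rbm24a, 3.01%), 7 with slide 4 alone, where 33.2% of all probes were called higher, 1 at the unadjusted p of the t-test (6.58%), 1 without the 3 fish (ddx11, 3.9%), and from 0 to 1 with 1 fish left out. The cause of these changes was not tested. The ddx11 probe called without the 3 fish was well above background on 0 exercised arrays and 1 non-exercised array, so its call rests on values near background. A shift to the median in place of the 75th percentile moved the median of all probes from 0.26 to 0.01 and gave 32 members called lower (3.26%) and 0 higher. At the share of probes above background given above, dim probes carry only limits near background.

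Fish numbers were shared between the groups. The correlations of fish with the same number ran from -0.017 to 0.458, with 7 of 8 over 0.1. Those of fish with different numbers ran from -0.417 to 0.446, and 4 of 8 non-exercised fish matched their own number best. The labels do not say that a number marks a shared origin, and since 1 pair was not over 0.1 the numbers were not used as pairs. A replicate block called 30 members lower (2.26%) and 0 higher, with a median of -0.54. Of the 22 probes, 19 were called with it and 3 were not, and the Sm and snRNP group went from 5 to 8 called.

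The probes used for celf3a, celf4 and elavl3, given no difference above, were well above background on 1 array each. A change of sign in these 3 genes is therefore not read as a result. Of the members given with values, these changed sign. With normexp they were celf3a (-0.00073), elavl3 (-0.096), srsf1a A_15_P118236 (-0.22), srsf2b (0.050) and ddx4 A_15_P117971 (-0.30). With no background correction they were celf3a (-0.16), celf4 (-0.075), elavl3 (-0.14), srsf1a A_15_P118236 (-0.22), srsf2b (0.055) and ddx4 A_15_P117971 (-0.43). With quantile normalization they were celf3a (-0.094), elavl3 (-0.047), prpf6 (0.042), dhx38 (-0.099), srsf1a A_15_P118236 (-0.41) and srsf2b (0.10). With the median shift they were celf4 (-0.22), rbm39a (-0.16), lsm14b A_15_P103325 (-0.015), dhx38 (-0.13) and srsf1a A_15_P118236 (-0.16). With cyclic loess they were celf4 (-0.35), elavl3 (-0.11), prpf6 (0.014), srsf1a A_15_P118236 (-0.27) and srsf2b (0.13). With slide 1 alone celf4 (-0.75), rbm39a (-0.078) and dhx38 (-0.37) turned, and with slide 2 alone elavl4 (-0.030), lsm12b (0.070), prpf6 (0.29), lsm14b A_15_P103325 (-0.071) and srsf2b (0.098). With slide 3 alone celf4 (-0.87), elavl3 (-1.0), srsf1a A_15_P118236 (-0.33) and srsf2b (0.12) turned, and with slide 4 alone celf2 (0.044), prpf6 (0.28), rbm39a (-0.065), dhx38 (-0.019) and elavl1a A_15_P108991 (0.55). With both fish numbered 8 left out celf4 (-0.37), lsm14b A_15_P103325 (-0.042) and srsf1a A_15_P118236 (-0.19) turned, and without the 3 fish rich in egg transcripts prpf6 (0.0012), dhx38 (-0.082) and hnrnpk A_15_P119961 (1.04). With 1 fish left out the ranges that crossed 0 were celf4 (-0.29 to 0.45), elavl2 (-0.18 to 1.03), elavl3 (-0.10 to 0.56), prpf6 (-0.25 to 0.044), rbm39a (-0.019 to 0.15), dhx38 (-0.070 to 0.24), srsf1a A_15_P118236 (-0.062 to 0.22), srsf2b (-0.074 to 0.071), hnrnpk (-0.59 to 1.43 and -1.28 to 0.12) and lsm14b (-0.63 to 1.03 and -0.37 to 1.22).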
